A study of Mus musculus with 2 samples.

Results

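Genes of the endoplasmic reticulum (ER) secretory pathway and of the unfolded protein response were compared between 2 microarrays of mouse CD4+ T cells. The list holds 50 genes, named by symbol. A gene counted as measured when at least 1 probe set, a group of short probes for 1 transcript, carried its symbol and no other. This gave 48 genes of 11807 on the array, read by 95 probe sets, and 47 of the 48 were above background on at least 1 array. Pdia3 and Sec61g had no such probe set and were not analysed here. The cells were naive CD4+ T cells of the lymph nodes and spleen, taken from female C57BL/6J mice and activated for 60 h by plate-bound antibodies against CD3 and against CD28, and total RNA was then extracted. The untreated group received the antibodies alone, and the IL-27-treated group received the same antibodies and 25 ng/ml of recombinant murine IL-27, a cytokine of the IL-12 family. The ages of the mice and the number pooled are not given in the labels. Each group has 1 array, so no difference below has a replicate check, a p-value or a standard error, and an effect of the cytokine cannot be told apart from variation between cultures or hybridizations. The study set out to screen for transcription factors induced by IL-27.

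Secreted and membrane proteins enter the ER through the Sec61 channel, lose their signal peptide to signal peptidase, receive N-linked glycans from oligosaccharyltransferase and fold with the help of chaperones and disulfide isomerases. Correctly folded proteins leave in COPII-coated vesicles, resident proteins that escape are returned by KDEL receptors in COPI-coated vesicles, and misfolded proteins are sent to the proteasome by ER-associated degradation. When unfolded proteins build up, the membrane sensors IRE1 (Ern1), ATF6 and PERK raise the transcription of this machinery, IRE1 by splicing the mRNA of Xbp1. In lymphocytes this programme is best known from plasma cells, and activated T cells also enlarge it as they begin to grow and secrete cytokines.

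Many of these genes are known to carry short DNA elements that ATF6 and XBP1 bind, and those found in the members' promoters are shown first because they are a feature that some of the genes share beyond their roles. The ER stress element (ERSE, which is CCAAT and CCACG with 9 bases of any kind between them), its shorter form ERSE-II (ATTGG and CCACG with 1 base of any kind between them) and the unfolded protein response element (UPRE, TGACGTGG) were searched on both strands of RefSeq promoter windows of 300 bases, 250 before and 50 after each annotated start, of assembly GRCm38.p6. The 3 motifs overlap in letters, since each holds CCACG on 1 of its strands. Windows were found by symbol for 40 of the 50 genes. The ERSE was in the windows of 7 of the 40 genes (17.5%), against 37 of all 27025 genes in the table (0.137%), or 39 of its 32851 windows (0.119%), since some genes have several. ERSE-II was in 2 of 40 (5%), against 0.0444% of all genes and 0.0365% of windows, and the UPRE in 2 of 40 (5%), against 0.714% of genes and 0.676% of windows. The genes were listed for their part in this response, and these shares are a description of the list. The elements follow in the gene's own orientation with 8 bases on either side, and capitals mark the motif.
Hspa5 (chr2:34772017-34772051, plus strand), ERSE: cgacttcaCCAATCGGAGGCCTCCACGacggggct
Hsp90b1 (chr10:86705630-86705664, minus strand), ERSE: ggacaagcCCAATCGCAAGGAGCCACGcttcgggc
Hsp90b1 (chr10:86705525-86705559, minus strand), reversed ERSE: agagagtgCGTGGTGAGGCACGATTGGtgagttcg
Calr (chr8:84847067-84847101, minus strand), reversed ERSE: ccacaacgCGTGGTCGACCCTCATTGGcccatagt
Canx (chr11:50325792-50325826, minus strand), ERSE: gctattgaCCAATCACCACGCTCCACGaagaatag
Pdia6 (chr12:17266483-17266517, plus strand), ERSE: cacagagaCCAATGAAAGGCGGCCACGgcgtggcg
Dnajc3 (chr14:118937819-118937853, plus strand), ERSE: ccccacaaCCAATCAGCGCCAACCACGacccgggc
Syvn1 (chr19:6046524-6046558, plus strand), ERSE: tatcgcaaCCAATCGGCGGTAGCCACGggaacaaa
Herpud1 (chr8:94386369-94386395, plus strand), ERSE-II: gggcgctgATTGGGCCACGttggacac
Dnajb11 (chr16:22857844-22857870, plus strand), ERSE-II: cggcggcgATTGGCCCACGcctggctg
Sec24d (chr3:123267462-123267485, plus strand), UPRE: cgggcgccTGACGTGGcactagca
Sec23a (chr12:59011996-59012019, minus strand), UPRE: ctccccttTGACGTGGcagaggcg

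**Figure D1:**
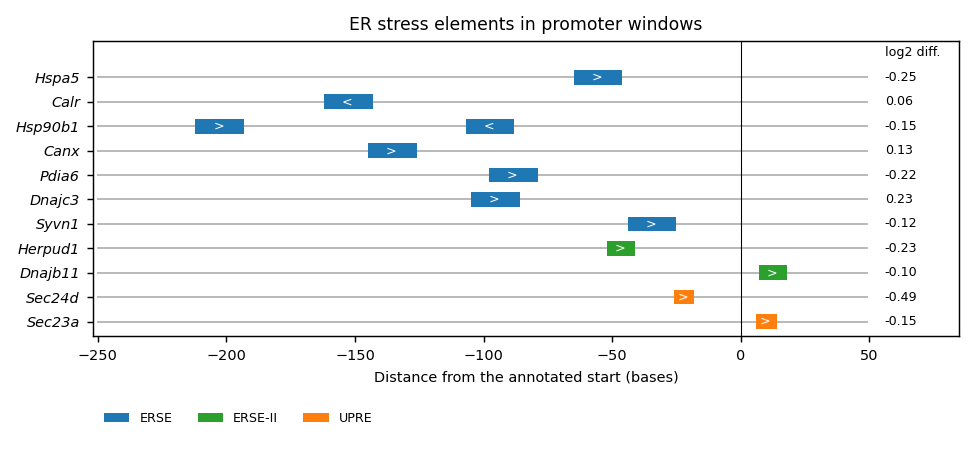
Positions of the 3 motifs in the promoter windows of 11 genes, as distance in bases from the annotated start; bars span the motif, arrowheads give its orientation and the number at the right is the gene's log2 difference between the arrays. The ERSEs lie upstream of the start, from -212 in Hsp90b1 to -26 in Syvn1, while the ERSE-II of Dnajb11 and the UPRE of Sec23a lie just downstream of it.

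The whole windows of 2 genes are given for context. Hspa5 (chr2:34771840-34772139, plus strand) encodes BiP, the best known target of the response, and the exact match to the ERSE is in capitals. Near matches were not searched. Creb3l2 (chr6:37442099-37442398, minus strand) had the largest difference of the 47 genes, and its window holds none of the 3 motifs, which says only that these letters are not in this window.
Hspa5: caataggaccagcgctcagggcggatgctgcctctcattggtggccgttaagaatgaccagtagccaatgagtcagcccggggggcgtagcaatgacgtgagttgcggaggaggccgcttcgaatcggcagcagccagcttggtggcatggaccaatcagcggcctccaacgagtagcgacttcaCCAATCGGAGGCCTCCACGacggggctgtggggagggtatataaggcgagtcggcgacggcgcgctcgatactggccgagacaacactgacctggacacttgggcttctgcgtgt
Creb3l2: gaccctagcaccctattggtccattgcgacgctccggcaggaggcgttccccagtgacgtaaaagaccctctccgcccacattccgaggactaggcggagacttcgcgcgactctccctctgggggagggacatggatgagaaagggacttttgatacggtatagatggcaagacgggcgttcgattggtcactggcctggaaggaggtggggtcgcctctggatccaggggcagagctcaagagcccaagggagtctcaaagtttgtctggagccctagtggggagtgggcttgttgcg

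Values are RMA intensities on a linear scale in arbitrary units, and a difference is always log2 of the IL-27-labelled array minus log2 of the untreated-labelled array. Median intensities over all probe sets were 33.3 and 32.4, and the arrays' log2 values correlated across probe sets with r = 0.989 (Pearson), a value across probe sets and not across replicates. The background floor, the 95th percentile of genes of other tissues, was an intensity of 18.6, and 7410 genes were brighter than that on 1 array or both. Some known targets of IL-27 lay against the labels. Socs3, which STAT3 is known to induce, read 1122 on the untreated-labelled array and 185.8 on the other, and Il21 had 384.3 and 26.7. Il10 had 47.2 and a value below the floor, and Prdm1, described below, was lower as well. Il2 and Gata3, which IL-27 is known to restrain, had 338.0 and 1853, and 36.5 and 166.4. Irf4, looked up with these genes, differed far less, with 1910 and 1579 (-0.27). Other known targets are not reported here. All directions below follow the labels, and if the labels of the arrays were exchanged, every sign below would turn, so that the 36 of 47 ER genes given as lower would be higher. Of 10 T cell markers, 9 were measured and all 9 were above background on both arrays, among them Cd4 (342.5 and 395.4) and Cd3e (607.0 and 546.2), and Lck was not analysed here.

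The ER genes as a list lay slightly lower on the IL-27-labelled array, and few differed by much. Of the 47 genes above background, 1 was at least 2-fold lower, Creb3l2, against 2.58% of all genes, and 0 were at least 2-fold higher, against 1.42%. At 1.5-fold, 3 were lower, Creb3l2, Atf6 and Sel1l, against 6.98% of all genes, and 0 were higher, against 4.99%. Both counts of lower genes are near the share of all genes past the same fold. By any amount, 36 of 47 were lower (76.6%), against 48.3% of all genes, and 11 were higher, against 51.4%. Their median was -0.15, with quartiles of -0.31 and -0.01, and the median of all genes was 0.01, with quartiles of -0.21 and 0.22. Below the lower quartile of all genes lay 20 of the 47, between the quartiles 24, and above the upper quartile 3, which were Creb3, Dnajc3 and Sec11c. The measured T cell markers, which are no part of the pathway, were lower by any amount in 7 of 9 cases with a median of -0.24, and their part in the result was not tested. In RNA of whole cultures, less RNA per cell and fewer cells of a type cannot be told apart.

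**Figure D2:**
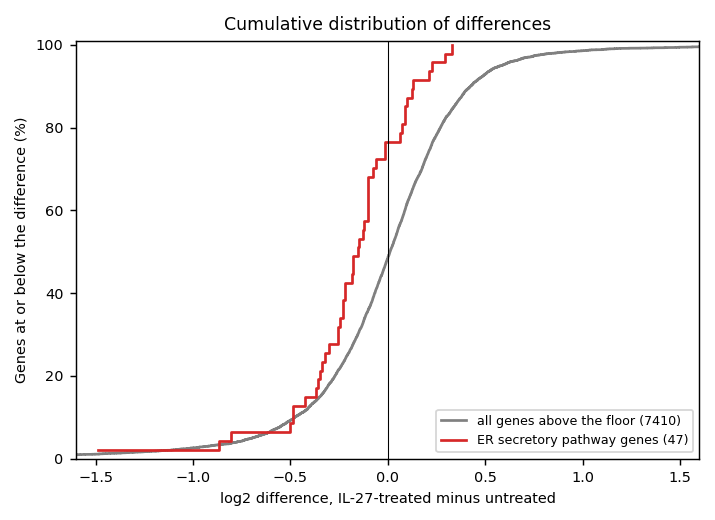
Cumulative share of genes, in percent, at or below each log2 difference between the arrays, for the 47 ER genes (red) and the 7410 genes above background (grey), with the axis limited to differences that hold all 47. The red curve crosses 0 at 76.6% and the grey one at about 48.3%, and the curves meet on the far left, where Creb3l2, Atf6 and Sel1l lie.

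The distance between probe sets of the same gene measures how far probes disagree. It holds no error between cultures or hybridizations, since all probe sets were read on the same arrays. Over the 2482 genes with at least 2 probe sets above background, the log2 differences of the 2 brightest were 0.17 apart in the median, and over the 24 such ER genes 0.10 apart. Of the 47 genes, 27 differed between the arrays by more than 0.17, 23 of them lower and 4 higher, and the other 20 lay within that gap. Most of the 7410 genes above background passed that gap too, since their quartiles were -0.21 and 0.22. The 27 are therefore no sign that ER genes differed more often than other genes. Among the 24 genes with several probe sets, all probe sets were lower in 12, all were higher in 4, and in 8 they lay on both sides of 0. The genes with probe sets on both sides were Xbp1, Canx, Dnajc3, Edem1, Sec62, Sec63, Ssr4 and Lman1.

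**Figure D3:**
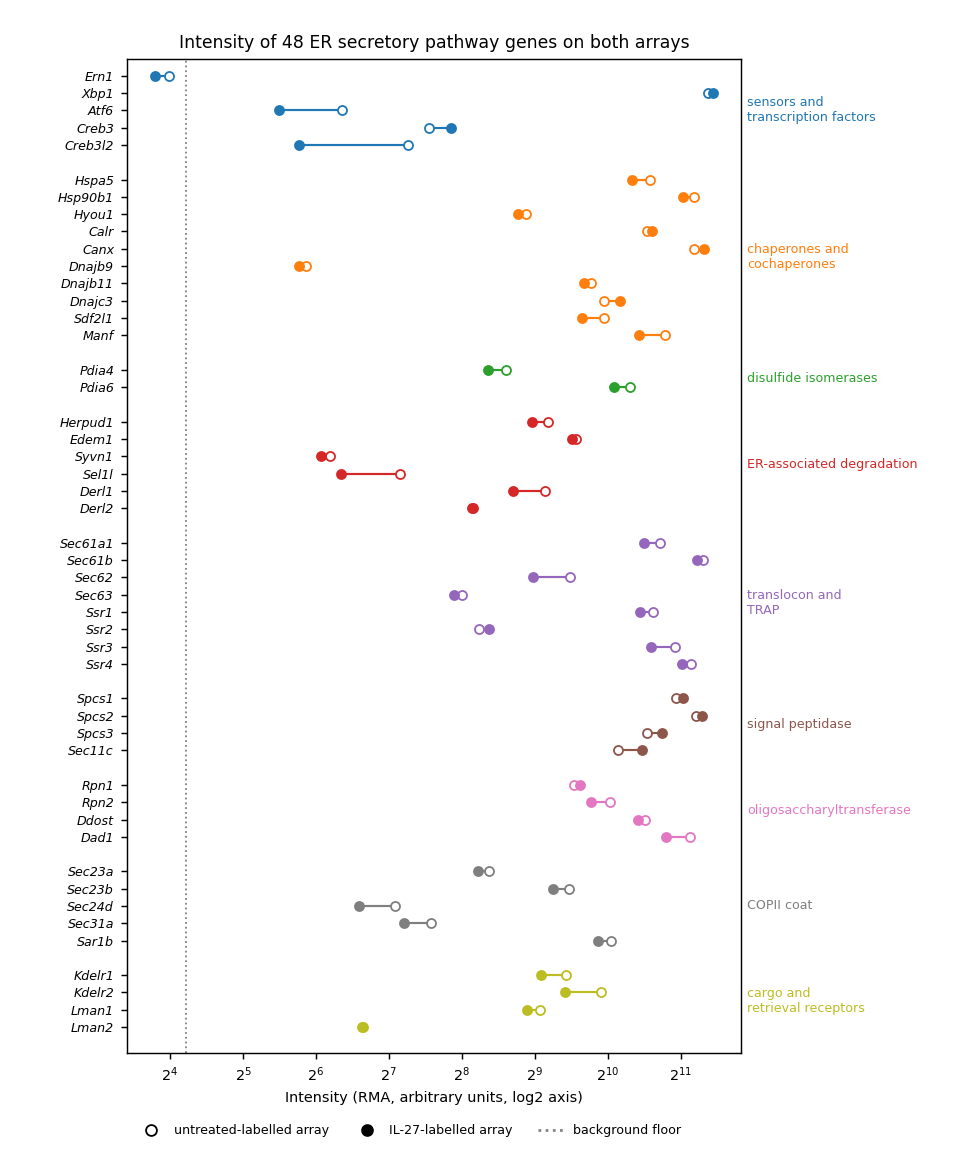
RMA intensity (log2 axis) of the 48 measured genes on the untreated-labelled array (open circles) and the IL-27-labelled array (filled circles), grouped by role, with the background floor of 18.6 as a dotted line. Ern1 lies below the floor on both arrays, the widest gaps are those of Creb3l2, Atf6 and Sel1l, and the 4 signal peptidase genes have the filled circle on the right; levels of different genes come from different probes and are not comparable.

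Among the sensors and transcription factors, values spread more widely than in the other roles. Creb3l2, an ER-anchored factor that is cut in the Golgi and raises COPII genes in chondrocytes, had an intensity of 153.3 on the untreated-labelled array and 54.7 on the other. It was thus 2.80-fold lower (-1.49 on the log2 scale), and its dimmer probe set, at 43.3 and 23.0, was 1.88-fold lower. Atf6, the sensor whose freed domain is itself a transcription factor, stood at 81.8 and 44.9, which is 1.82-fold lower by its single probe set. Both genes were lower than nearly all others, since 1.07% of genes had a lower difference than Creb3l2 and 3.36% a lower one than Atf6.

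Xbp1 showed no such gap. Its brightest probe set read 2651 and 2783, a difference of 0.07, and its other 3 differed by -0.09, 0.24 and -0.03. Such a probe set sums spliced and unspliced mRNA, so the values do not measure IRE1 activity. Creb3, a relative of Creb3l2, was higher on the IL-27-labelled array, at 188.1 and 230.3 (0.29). Ern1, which encodes IRE1, was below the floor on both arrays by each of its probe sets, at most at 15.8. Prdm1, which encodes Blimp-1, a factor that acts upstream of Xbp1 in plasma cells, had 189.8 on the untreated-labelled array and on the other lay under the floor, and was thus lower by at least 10.2-fold.

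**Figure D4:**
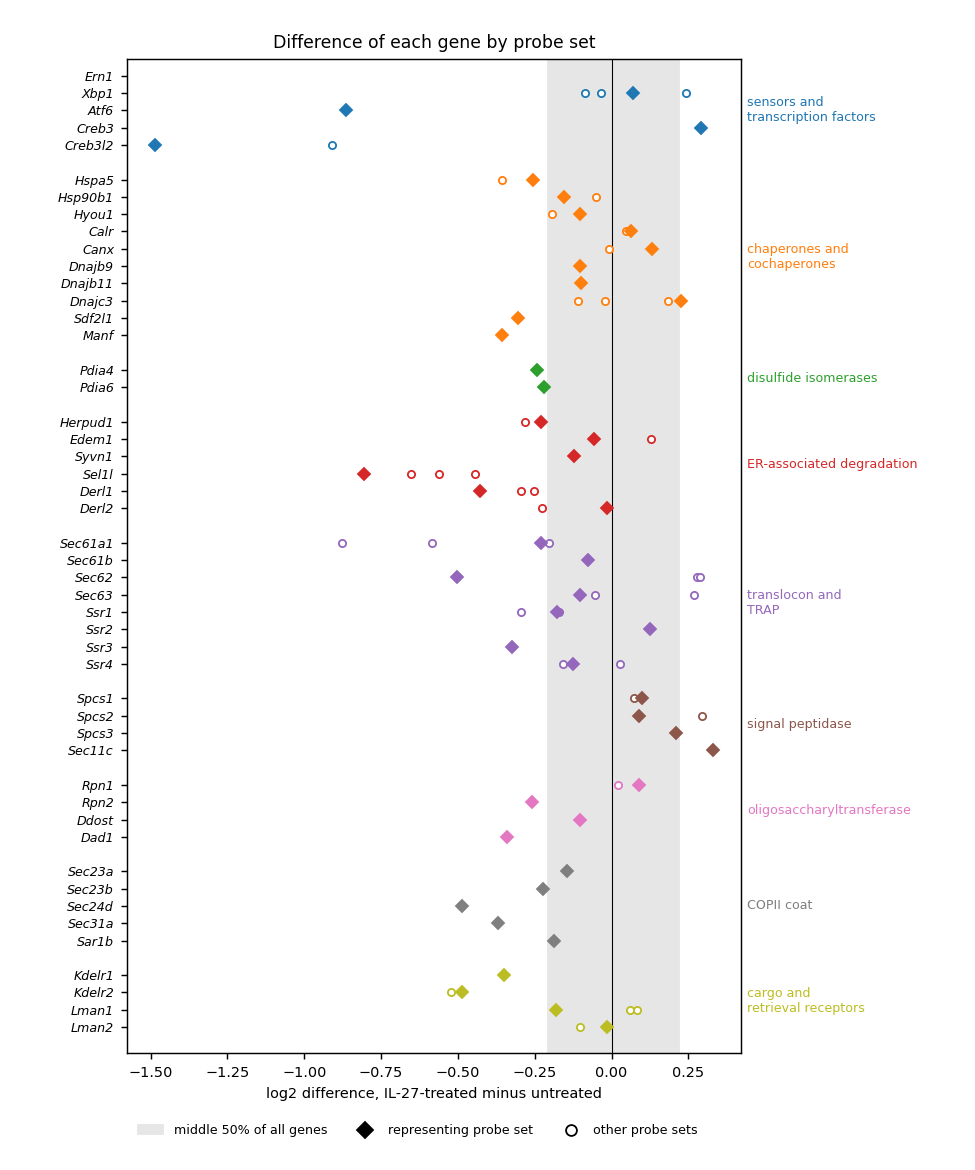
Log2 difference between the arrays (IL-27-treated minus untreated) for each gene above background, by role; diamonds are the probe set that represents the gene, open circles its other probe sets above the floor, and the grey band holds the middle 50% of all genes. COPII coat and ER-associated degradation genes lie left of 0 by their diamonds (Derl2 only until each array's median is subtracted), the 4 signal peptidase genes lie right of it, and the open circles of Sec62 lie on the other side of 0 from its diamond; Ern1 has no point.

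Of the 10 chaperones and cochaperones, 7 were lower by any amount and 3 higher, with a median of -0.10, and all were within 1.5-fold. Hspa5, the Hsp70 chaperone BiP, had intensities of 1532 and 1284, a difference of -0.25, and its other probe set differed by -0.36. Manf, a secreted ER stress protein that binds BiP, had 1765 and 1378 (-0.36). Sdf2l1, a partner of BiP and ERdj3, had 986.9 and 799.2 (-0.30). These were the 3 lowest of the role.

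Differences of the other chaperones were smaller. Hsp90b1, the Hsp90 of the ER, had 2327 and 2092 (-0.15), and its other probe set lay on the same side. Hyou1, a large Hsp70 that exchanges nucleotide on BiP, had 469.7 and 437.6 (-0.10). The J-domain cochaperones of BiP were split, with Dnajb9 at 58.3 and 54.3 (-0.10), Dnajb11 at 871.7 and 813.3 (-0.10) and Dnajc3 at 986.8 and 1154 (0.23). The probe sets of Dnajc3 disagreed, however, with differences of 0.18, -0.11 and -0.02 for the other 3 above background. The lectin chaperones calreticulin and calnexin, which hold glycoproteins during folding, were both slightly higher, Calr at 1485 and 1553 (0.06) and Canx at 2330 and 2552 (0.13), and the other probe set of Canx differed by -0.01. Of the disulfide isomerases, which form and rearrange disulfide bonds, Pdia4 had 388.8 and 328.5 (-0.24) and Pdia6 1266 and 1086 (-0.22).

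All 6 genes of ER-associated degradation were lower on the IL-27-labelled array by their representing probe set, against 48.3% of all genes. Their median was -0.18, and Derl2 turned sign when each array's median was subtracted. Sel1l, the adaptor that stabilises the ubiquitin ligase Hrd1, had the third largest difference of all 47 genes, at 142.0 and 81.3, or 1.75-fold lower. Its other 3 probe sets were lower as well, by 1.57-fold, 1.48-fold and 1.36-fold. Syvn1, which encodes Hrd1 itself, differed far less, at 72.8 and 66.9 (-0.12). Derl1, a derlin of the retrotranslocation channel, had 561.7 and 417.6 (-0.43), with -0.30 and -0.25 from its other probe sets. Its relative Derl2 had 285.4 and 282.7, a difference of -0.01. Herpud1, an ER stress gene that recruits the Hrd1 complex, had 582.7 and 497.1 (-0.23), and Edem1, a lectin that marks misfolded glycoproteins, had 756.2 and 726.1 (-0.06), with its other probe set at 0.13.

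Of the 8 genes of the translocon and of the translocon-associated protein complex (TRAP), 7 were lower by any amount, against 48.3% of all genes. Their median was -0.15. Sec61a1, the pore subunit of the channel, had 1686 and 1439 (-0.23), and its 3 other probe sets differed by -0.20, -0.88 and -0.59. The small subunit gene Sec61b had 2527 and 2396 (-0.08). Sec62, which takes part in translocation after translation, had 715.5 and 505.0 (-0.50) by its brightest probe set. Its other probe sets above background were higher, at 39.6 and 48.0 (0.28) and, near the floor, at 16.1 and 19.6 (0.29). The direction of Sec62 thus depends on the probe set. Sec63, its partner, had 255.3 and 237.8 (-0.10), but its other probe sets differed by -0.05 and 0.27, so its direction depends on the probe set too. Among the TRAP genes, Ssr3 had 1937 and 1548 (-0.32), Ssr1 1568 and 1388 (-0.18), Ssr4 2254 and 2067 (-0.13) and Ssr2 302.5 and 330.1 (0.13).

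The signal peptidase genes were the single role in which all genes lay higher on the IL-27-labelled array, although by little. Of all genes, 51.4% were higher. Sec11c, a catalytic subunit, had 1125 and 1415 (0.33), the largest positive difference of the 47 genes. Spcs3, a subunit needed for cleavage, had 1480 and 1711 (0.21). Spcs1 had 1950 and 2089 (0.10), and Spcs2 had 2358 and 2506 (0.09), with 0.30 from its other probe set. The oligosaccharyltransferase genes were mostly on the lower side. Dad1 had 2245 and 1773 (-0.34), Rpn2 1047 and 875.6 (-0.26), Ddost 1462 and 1362 (-0.10) and Rpn1 742.1 and 789.1 (0.09). These encode noncatalytic subunits that bind or stabilise the enzyme.

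Genes for exit from the ER and for retrieval to it were lower in all 9 cases by their representing probe set, against 48.3% of all genes. Lman2 turned sign when each array's median was subtracted, and the other probe sets of Lman1 above background were slightly higher. In the COPII coat the median was -0.22. Sec24d, a cargo-binding coat subunit, had 135.5 and 96.7 (-0.49), and Sec31a of the outer coat had 191.3 and 148.1 (-0.37). The inner coat genes Sec23b and Sec23a had 709.3 and 607.9 (-0.22) and 330.8 and 298.9 (-0.15), and Sar1b, the GTPase that starts coat assembly, had 1057 and 929.1 (-0.19). Each of these 5 genes has 1 probe set above background. Sec23a and Sec24d are known targets of Creb3l2 and its relatives, and both have the UPRE printed above. Whether the lower value of Creb3l2 bears on either gene was not tested. The difference of Sec23a was near the median of the 47 ER genes (-0.15). Among genes above background outside the list that have the UPRE, 39 of 68 were lower, with a median of -0.03.

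The KDEL receptors bind the C-terminal signal of escaped chaperones such as BiP and return them to the ER. Kdelr2 had 958.2 and 684.2 (-0.49), and its other probe set differed by -0.52. Kdelr1 had 691.1 and 542.1 (-0.35). The lectin cargo receptors differed less, Lman1 (ERGIC-53) with 539.3 and 475.9 (-0.18), with its other probe sets at 0.08 and 0.06, and Lman2 (VIP36) with 100.3 and 99.3 (-0.01).

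The members with and without a promoter element did not stand on different sides. Of the 9 genes with an ERSE or ERSE-II, 6 were lower by any amount, with a median of -0.12. Among the 26 genes above background whose windows hold none of the 3 motifs, 21 were lower, with a median of -0.15. The ERSE genes included 3 of the 11 genes that were higher, Calr, Canx and Dnajc3. Sec24d and Sec23a, with the UPRE, differed by -0.49 and -0.15.

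A further 108 genes of the pathway, in 10 lists, were read in the same way, and 88 of 92 measured were above background. Of these, 59 were lower by any amount (67.0%), against 48.3% of all genes, with a median of -0.12 against 0.01. Lower by 2-fold or more were 3, against 2.58% of all genes, and 0 were higher by as much, against 1.42%. At 1.5-fold, 6 were lower, against 6.98%, and 0 higher, against 4.99%, so the counts of lower genes past either fold are near the share of all genes. The gene furthest apart was Ero1a, the oxidase that recharges disulfide isomerases, with intensities of 3222 and 1010, or 3.19-fold lower, and its 3 probe sets differed by -1.87 to -1.51. P4hb, the main protein disulfide isomerase and a partner of Ero1a, had 2453 and 1557, or 1.58-fold lower. Ero1b and Txndc11 of the same list differed by -0.43 and -0.41. The list had 8 of 13 genes on the lower side and a median of -0.21.

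In the PERK arm, Ppp1r15a (GADD34), which reverses the translational block, had 246.2 and 122.4, or 2.01-fold lower. Ddit3 (CHOP), the factor of prolonged ER stress, had 786.2 and 436.9, or 1.80-fold lower, and Trib3, a pseudokinase induced by CHOP, had 243.7 and 161.0, or 1.51-fold lower. Atf4, the factor upstream of these 3 genes, is regulated mainly by translation and differed by -0.02, and Chac1, another of its targets, lay higher (0.23). Of 8 genes in the list, 6 were lower, with a median of -0.10.

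Further coat genes lay mostly on the lower side, and cargo receptor genes on both sides. The third KDEL receptor gene, Kdelr3, had 52.2 and 22.6, or 2.30-fold lower, and the second of these values is just above the floor. In the further COPII and ER exit list, 10 of 12 were lower with a median of -0.24, led by Sec16a, the scaffold of exit sites, with 585.4 and 396.0 (-0.56). The SNARE gene Ykt6, the Sar1 exchange factor gene Preb and the coat gene Sec24c differed by -0.39, -0.38 and -0.34. In the COPI list 8 of 9 were lower with a median of -0.28, and Copz2, Copg1, Copa and Copb2 differed by -0.34, -0.32, -0.32 and -0.31. Against this, Ergic2 and Ergic1, which shuttle between ER and Golgi, were higher by 0.50 and 0.39, and Surf4, a cargo receptor, differed by -0.24 in a list of 10 with 7 lower and a median of -0.12.

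**Figure D5:**
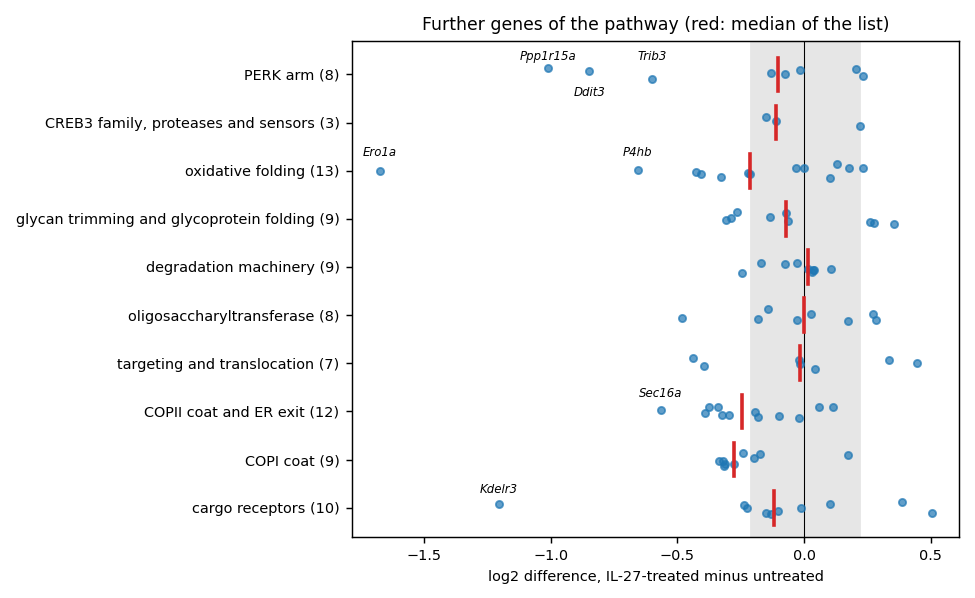
Log2 difference between the arrays (IL-27-treated minus untreated) for 88 further genes of the pathway above background, in 10 lists with the number of genes in brackets; points are genes, spread vertically for legibility, red bars are list medians and the grey band holds the middle 50% of all genes. Ero1a, Kdelr3, Ppp1r15a and Ddit3 lie furthest to the left, and the medians of the COPI and COPII lists lie left of the band, with that of oxidative folding at its edge.

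The remaining lists had medians near 0 or small. The further degradation machinery had 4 of 9 lower and a median of 0.02, with Selenos, Ube2j2, Ube2g2 and Ube2j1 at -0.24, -0.17, 0.10 and -0.08. The other probe sets of Ube2g2 and Ube2j1 differed by -0.09 and 0.11, on the other side of 0. The further oligosaccharyltransferase genes had 4 of 8 lower and a median of -0.001, with Tmem258 at -0.48, the catalytic subunit Stt3b at 0.28, Tusc3 at 0.27 and Ost4 at -0.18. The other probe set of Stt3b differed by 0.03. In targeting and translocation, 4 of 7 were lower with a median of -0.02, with Sec61a2 at 0.45, the signal recognition particle receptor genes Srpr and Srprb at -0.44 and 0.33 and Tram1 at -0.39. The higher values of Sec61a2 and Srprb rest on 1 probe set each. The other probe set of Sec61a2 differed by 0.01, and those of Srprb by -0.01 and -0.03. The 9 genes of glycan trimming had 6 lower and a median of -0.07, with the glucosidase Mogs at 0.35, the lectin Os9 at -0.31, Edem3 at -0.29 and Man1b1 at 0.28. Of the CREB3 family, its proteases and related sensors, 3 of 6 measured were above background, Atf6b at 0.22, the protease gene Mbtps1 at -0.15 and Creb3l1 at -0.11.

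Markers of plasma cells, whose secretory pathway is far larger than that of T cells, were at or near the floor on both arrays. Of 12 B and plasma cell markers, 9 were measured and 3 were above the floor on at least 1 array, with a highest intensity of 32.0. These were Pou2af1 (32.0 and 18.2), Cd79b (20.2 and 25.6) and Derl3 (20.0 and 19.8), while Jchain, Ighm, Cd22, Cd79a, Ms4a1 and Tnfrsf17 were below it on both. The summed intensity of the 9 was 141.5 and 135.2. Of 6 macrophage markers, Cd68 (54.9 and 27.5) and Csf1r (26.2 and 24.4) were above the floor, and the sum over the 6 was 131.5 and 102.1.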

How the data were processed

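The deposited table holds 1 intensity per probe set and array, made by the authors with RMA per the submitters' processing notes; its version is not given in the sources used here. Since RMA matches the arrays' distributions, a change in total RNA is hidden, and differences of dim probe sets are understated. Of 22716 probe sets, 18003 had 1 gene symbol, 287 had several and 4426 had none in the platform annotation. Intensities were taken to log2 without a pseudocount (Python 3.11.15, pandas 2.3.3). Each gene was read by its brightest probe set, on the mean of both log2 values. The floor came from 40 measured genes of 46 of other tissues. Nothing was tested, since each group has 1 array, and the number of arrays limits the precision. The procedure was tested on simulated data. Members, lists and the naming rule were chosen with earlier results of these data known: all 50 genes, up to 4 genes per further list with the largest absolute difference, and each at least 2-fold apart. The genes that check the labels, Prdm1 and the motifs were chosen after values were seen. In the promoter table, TATAAA lay just upstream of the start in 332 windows of plus-strand and 323 of minus-strand genes, against 93 and 108 at the mirrored place, so windows were read in the gene's orientation. Alternatives changed the probe set, the filter, the normalization (loess with statsmodels 0.14.6), dim values and the pseudocount.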

Additional observations from a re-analysis of the deposited data

How the results depend on the processing

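The counts of ER genes past 2-fold (1 lower, 0 higher) and past 1.5-fold (3 lower, 0 higher) were the same under all 8 alternatives. The count lower by any amount ranged from 33 of 47, with probe sets averaged per gene, to 37 of 46, without probe sets of the kinds prone to match several transcripts. Of all genes, 48.4% and 48.7% were lower under the same settings. The median ranged from -0.18 with the stricter filter, an intensity of at least 74.5, to -0.12 after subtraction of each array's median, where 34 of 47 were lower. Subtracting medians moved the median of all genes to 0.05, and 43.9% of them were then lower. With the mean of probe sets Creb3l2 differed by -1.20, Sel1l by -0.62, Sec61a1 by -0.47 (from -0.23) and Lman1 by -0.01 (from -0.18), and with a pseudocount of 16 Creb3l2 differed by -1.26 and Atf6 by -0.68. Signs turned for Edem1, Sec62 and Sec63 with the mean of probe sets, for Xbp1, Canx and Sec62 without the cross-matching kinds, and for Derl2 and Lman2 after subtraction of medians. Sec62 then differed by 0.02 and 0.28 under the first and second of these, and the cause was not tested. No paired analysis was possible because each group has 1 array, and no replicate could be left out.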

Other observations

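Few genes outside the 50 carry the ERSE in their promoter window. Of the genes above background that are not among the 50, 8 had an ERSE, and 7 of these were lower by any amount on the IL-27-labelled array, with a median of -0.22. Among the 7, Acacb (18.9 and 18.1, -0.07) and Derl3 (20.0 and 19.8, -0.01) lay close to the floor of 18.6 and hardly differed. Chosen after their values were seen, Creld2, an ER stress protein, had intensities of 480.4 and 418.4 (-0.20), Alg12, a mannosyltransferase of glycan assembly, had 74.0 and 62.8 (-0.24), and Pan2, a deadenylase subunit, had 140.5 and 88.6 (-0.67). Ero1b, also among the 8, is one of the further pathway genes, and Derl3 one of the plasma cell markers. Of 5 such genes with ERSE-II, 4 were lower, with a median of -0.07. Nucb1, a calcium-binding protein of the Golgi, had 501.3 and 428.1 (-0.23). Rcl1, which was higher, had 295.4 and 395.8 (0.42), the largest difference of the 5. Krtcap2, also among the 5, is one of the further pathway genes and differed by -0.03. Of 68 with the UPRE, 39 were lower, with a median of -0.03. The 68 include the further pathway genes Kdelr3, Txndc11, Copb2, Arf1, Ube2j1 and Txndc5 and the cell type markers Cd3e and Pou2af1. All genes above background were lower in 48.3% of cases.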
